A study of Mus musculus with 8 samples.

Results

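The 9 genes described here encode coat proteins of lipid droplets (Plin1, Plin2 and Plin3), the enzymes that release fatty acids from stored lipid inside the cell with their activator (Pnpla2, Abhd5, Lipe and Mgll), and a pair of lipases that act at the cell surface (Lipg and Lpl). They were named by function and found by symbol and NCBI gene ID, 9 of 41591 genes in the count tables. The set was chosen by function with the counts and DKO against control differences of these same libraries already known, so every DKO against control value of these genes is a description and is not independent support. All 9 passed the filter on low counts, which kept 16870 genes.

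Whole ovaries of 8 C57BL/6 females about 3 weeks old were sequenced for their RNA. Controls (n = 4) carried the label wild-type and were Pgr-Cre positive, so they hold the Cre recombinase made under the progesterone receptor gene Pgr. The other 4 mice were littermates with a conditional Insr-Igf1r double knockout (DKO), which removes the receptors for insulin and insulin-like growth factor 1, and their genotype label names no Cre driver. Every mouse had 4 IU of equine chorionic gonadotropin, 5 IU of human chorionic gonadotropin (hCG) 48 h later, and its ovaries taken 12 h after hCG, so no ovary was unstimulated. A whole ovary also holds cells in which Pgr is silent, and in such bulk samples fewer cells of a type and less RNA per cell cannot be told apart.

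A lipid droplet is a store of triglyceride or cholesterol ester wrapped in a single layer of phospholipid, and perilipins are the proteins that cover it and control which lipases reach the core. Triglyceride is taken apart in steps. PNPLA2 removes the first fatty acid once ABHD5 activates it, LIPE acts on diglyceride and on cholesterol ester, and MGLL splits the last monoglyceride. In steroid-producing ovarian cells the cholesterol esters of droplets are a source for progesterone, and insulin is known to restrain lipolysis in fat cells. Lipoprotein lipase, from Lpl, and endothelial lipase, from Lipg, work outside the cell on circulating lipoproteins.

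RefSeq windows around the transcription start were matched for 7 of the 9 genes. The windows of the coat genes Plin1 and Plin2 and of the related coat gene Plin5 are shown because these 3 genes of 1 family had unlike values in DKO ovaries. Each is on the minus strand of GRCm38.p6, runs 5′ to 3′ from 250 bases before to 50 after the start, and covers chr7:79732727-79733026 for Plin1, chr4:86670010-86670309 for Plin2 and chr17:56117499-56117798 for the more upstream of the starts of Plin5. Capitals mark AGGTCA, the core read by many nuclear receptors including PPAR with RXR, and the E-box CACGTG, each on either strand.
Plin1: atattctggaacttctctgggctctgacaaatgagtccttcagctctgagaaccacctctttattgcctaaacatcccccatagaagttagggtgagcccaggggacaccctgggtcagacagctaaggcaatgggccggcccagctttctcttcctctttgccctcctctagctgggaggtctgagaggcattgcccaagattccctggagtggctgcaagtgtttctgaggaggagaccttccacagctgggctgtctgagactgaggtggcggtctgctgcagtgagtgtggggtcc
Plin2: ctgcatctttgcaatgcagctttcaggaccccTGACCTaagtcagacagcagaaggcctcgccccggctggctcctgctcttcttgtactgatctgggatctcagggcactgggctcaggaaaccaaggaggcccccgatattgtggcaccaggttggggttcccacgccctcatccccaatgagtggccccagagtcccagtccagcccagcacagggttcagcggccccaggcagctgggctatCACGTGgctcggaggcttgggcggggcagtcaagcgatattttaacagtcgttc
Plin5: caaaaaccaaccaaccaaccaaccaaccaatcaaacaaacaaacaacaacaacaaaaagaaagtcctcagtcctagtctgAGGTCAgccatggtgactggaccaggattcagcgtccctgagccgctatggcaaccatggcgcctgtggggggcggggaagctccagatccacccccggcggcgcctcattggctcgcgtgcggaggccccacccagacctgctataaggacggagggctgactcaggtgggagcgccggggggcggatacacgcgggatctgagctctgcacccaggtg
The Plin2 window held 1 AGGTCA, on the opposite strand 218 bases before the start, and 1 CACGTG at the start itself. The Plin5 window held 1 AGGTCA 170 bases before the start, the window of its other start held 1 at 14 bases after it, and the Plin1 window held neither. Of all 32851 windows of this length, 16.3% held AGGTCA and 7.15% held CACGTG. A full direct repeat of AGGTCA with 1 base between the copies was found in 13 windows (0.0396%), none of them of a gene shown here. These matches describe the letters and nothing about binding.

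Sequencing depth was 33145056 to 39257648 counts per library, and values are given as CPM, counts divided by a library size scaled by its TMM factor. Insr had a mean of 155 ± 10.3 CPM over controls and 126 ± 16.8 over DKO (SD, n = 4 each), and Igf1r 236 ± 28.6 and 214 ± 22.4, counts over whole genes in which a removed exon cannot be seen (log2 fold changes -0.30 ± 0.11 and -0.14 ± 0.12 (SE), edgeR adjusted p = 0.226 and 0.639). Control ovaries held 2.42 to 6.5 CPM of Pgr and DKO ovaries 1.12 to 2.33 (edgeR adjusted p = 0.0665). Ovarian markers were present in every library, but control 1 and DKO 2 stood apart by oviduct markers. The sum of Ovgp1, Foxj1, Pax8 and Krt7 was 1291 CPM in control 1 and 826 in DKO 2, against 23.5 to 47.5 in the other 6 libraries. DKO 1 and DKO 2 stood apart by the beta-globin gene Hbb-bs, at 0.609 and 1.06 CPM against 105 to 442 in the other 6, and by Hbb-bt, at 0.178 and 0.0883 against 22.1 to 86. The other red blood cell markers listed, Hba-a1 and Alas2, were not low in DKO 1 and DKO 2. Hba-a1 was at 103 and 248 CPM there, against 73.6 to 171 in the other 6. Alas2 was at 18 and 46.8 CPM, against 14.5 to 27.7. The cause of the low Hbb-bs and Hbb-bt was not tested. These DKO libraries also held the highest Lipg and Plin3 of their group, and whether the differences are linked was not tested.

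Of the 9 genes, Lipg and Plin1 rose in DKO ovaries and no gene fell. A gene was called at an adjusted p under 0.05 by edgeR (quasi-likelihood), and over all genes tested 1.26% of genes were called and 0.759% were called higher. Plin3 and Lipe were higher in every DKO ovary than in any control without passing that test, a separation shown by 5.69% of all genes tested in this direction. The non-overlap in either direction was 9.23% of genes, and 0.498% of genes were called lower. DESeq2 called 4 of the 9, all higher (Lipg, Plin1, Plin3 and Lipe), where it called 4.13% of genes higher, 3.06% lower and 7.19% in all. The same 4 were called by limma-voom with quality weights, which called 9.79% of genes. Plin2, Lpl, Pnpla2, Abhd5 and Mgll overlapped between groups. The median log2 fold change of the 9 was 0.28, beside -0.021 over all genes tested.

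**Figure D1:**
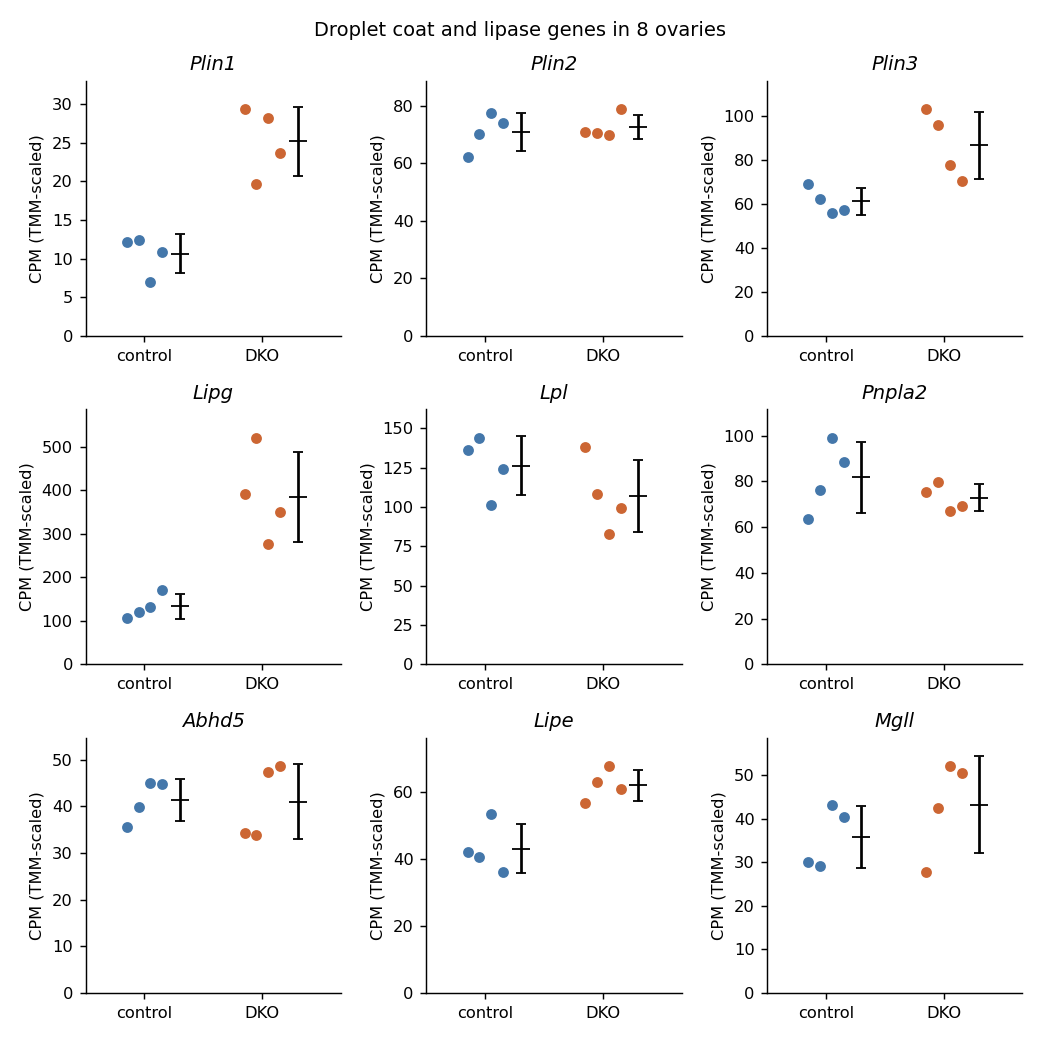
Level of each of the 9 genes in CPM (vertical axes, each from 0) in the 4 control (blue) and 4 DKO (orange) ovaries, in replicate order from left to right, with mean and SD in black. The DKO points of Lipg, Plin1, Plin3 and Lipe lie above all control points, and those of the other 5 genes overlap.

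Among the coat proteins, Plin1 showed the largest difference of the 3. PLIN1 is the coat protein of fat cells and steroid-producing cells that holds ABHD5 until protein kinase A releases it. Plin1 (gene ID 103968, chromosome 7, 79721164 to 79732903 in the annotation of the count tables, GRCm38.p5, used for all genes) was at 12.2, 12.4, 6.98 and 10.9 CPM in controls 1 to 4 and at 29.3, 19.6, 28.2 and 23.6 CPM in DKO 1 to 4. The lowest DKO ovary, DKO 2, was above the highest control. Its mean rose from 10.6 ± 2.50 to 25.2 ± 4.45 CPM (SD, n = 4 each), a log2 fold change of 1.25 ± 0.20 (SE, edgeR adjusted p = 0.0277). The call ended without control 2 (1.33, adjusted p = 0.0881), control 4 (1.26, 0.0864), DKO 1 (1.17, 0.0688) or DKO 3 (1.20, 0.0935). It also ended without DKO 1 and DKO 2 together (1.31, 0.0766). The same held in the 5 ovaries of the higher run of title numbers (controls 2 to 4, DKO 3 and DKO 4), at 1.38 with an adjusted p of 0.0507. The targeted gene Igf1r is on chromosome 7 as well (67951833 to 68233668). Whether linkage to that locus bears on the Plin1 values was not tested.

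Plin2 (gene ID 11520, chromosome 4, 86626910 to 86670059) encodes the coat protein found on droplets of nearly all cells and often used as a sign of stored lipid. It was at 62.1, 70.0, 77.5 and 73.8 CPM in controls and 70.7, 70.6, 69.8 and 78.7 CPM in DKO. The groups overlapped, with DKO 4 above every control and control 1 below every DKO ovary, with means of 70.9 ± 6.58 and 72.5 ± 4.2 CPM and a log2 fold change of 0.032 ± 0.097 (edgeR adjusted p = 0.909). Over 22 alternative analyses its log2 fold change lay between -0.01 and 0.086.

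Plin3 (gene ID 66905, chromosome 17, 56278962 to 56290511) encodes a coat protein that is also soluble in the cytosol and moves onto new droplets. It was at 69.3, 62.1, 56.0 and 57.1 CPM in controls and 103, 95.9, 77.5 and 70.3 CPM in DKO. DKO 4 lay just above control 1, and DKO 1 and DKO 2 were highest. The log2 fold change was 0.50 ± 0.14 (edgeR adjusted p = 0.113), and DESeq2 gave an adjusted p of 0.0251. It was 0.36 within the higher run of title numbers (adjusted p = 0.305), 0.40 with a term for the run over all 8 libraries (0.0464), and 0.29 without DKO 1 and DKO 2 (0.546).

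The remaining perilipins, Plin4 and Plin5, stand on chromosome 17 with 1643 bases between them, 161 kb from Plin3 on the same strand. PLIN5 is the coat protein that ties droplets to mitochondria in tissues that burn fat, and PLIN4 is abundant in fat and muscle. Plin5 was at 2.28, 6.05, 21.4 and 4.18 CPM in controls and 60.3, 65.1, 52.7 and 36.3 CPM in DKO. Control 3 was the highest control and still below every DKO ovary. The log2 fold change was 2.66 ± 0.65 and did not pass (edgeR adjusted p = 0.102), but it was 3.68 with an adjusted p of 0.00649 without control 3, and limma-voom and DESeq2 called it on all libraries (adjusted p = 0.0279 and 0.0037). Plin4 was at 15.2, 29.5, 86.7 and 22.9 CPM in controls and 66.9, 317, 205 and 144 CPM in DKO, and the groups overlapped because control 3 exceeded DKO 1. Its log2 fold change was 2.25 ± 0.65 (edgeR adjusted p = 0.15), with 3.02 and an adjusted p of 0.0407 without control 3, and 1.60 (adjusted p = 0.324) without control 1 and DKO 2. Plin4 overlaps Hdgfl2 on the opposite strand, and the counting used strand. Cidec, whose protein fuses droplets in fat cells, ranged from 2.23 to 7.14 CPM over controls and from 1.08 to 4.86 over DKO (-1.04 ± 0.50, edgeR adjusted p = 0.368).

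Exon length puts the perilipin transcripts on 1 scale, and their shares are given as a description with no test. In CPM per kb of exon, the 5 perilipins summed to 72.6 ± 7.95 in controls and 134 ± 18.6 in DKO (SD, n = 4 each). Plin2 made up 40.9% ± 3.26 of that sum in controls and 23.0% ± 4.23 in DKO, and its share was lower in every DKO ovary than in any control. Plin5 made up 5.17% ± 4.72 in controls, where control 3 held 12.1%, and 18.9% ± 2.92 in DKO. The share of Plin4 was 3.21% to 14.6% in controls and 7.33% to 28.2% in DKO, and these ranges overlap. These shares describe messenger RNA, and the amount of lipid or of coat protein was not measured.

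**Figure D2:**
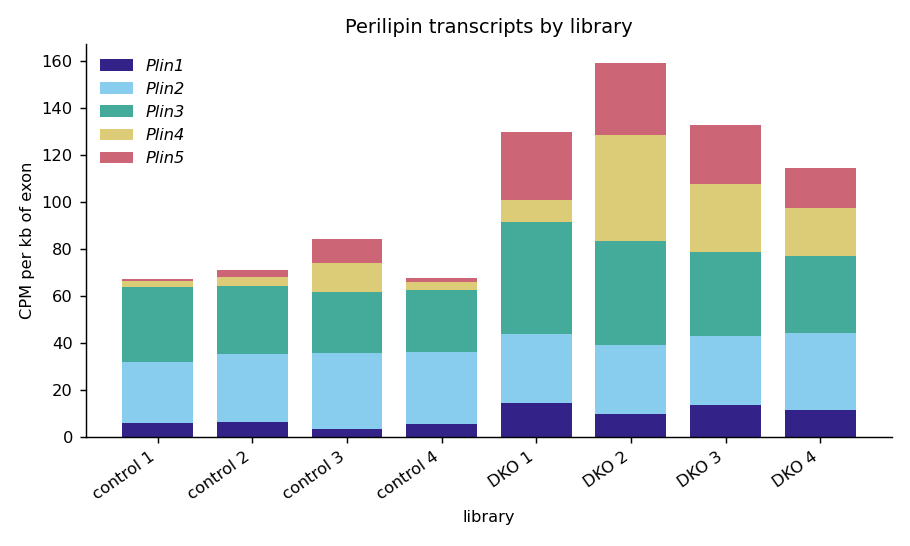
Stacked level of the 5 perilipin genes in each library, in CPM per kb of exon (vertical axis), controls on the left and DKO on the right. The total runs from 67.2 to 84.2 in controls and from 115 to 159 in DKO.

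Adipose tissue lies against the ovary and is rich in Plin1, so markers of fat cells were examined beside it. The summed level of 8 adipocyte markers was 35.8 to 105 CPM in controls and 19.3 to 70.5 CPM in DKO. Of the 6 tested, 5 were lower in DKO on the log2 scale, none of them called by edgeR. DESeq2 called 1 lower, and 1 was lower at an unadjusted p under 0.05, beside 6.98% of all genes tested. The defining markers Adipoq (1.87 to 7.82 CPM in controls, 1.15 to 4.62 in DKO), Cfd (7.80 to 28.6 and 4.59 to 19.2) and Retn (1.59 to 4.04 and 0.475 to 1.33) were present at low levels in every library. By the sum of all 8 markers control 1 was highest (105 CPM), with 12.2 CPM of Plin1. DKO 2 had the highest sum of its group (70.5 CPM), with 19.6 CPM of Plin1. Retn alone was highest in control 3, at 4.04 CPM against 1.85 in control 1. The part of fat cells in the Plin1 values was not tested. Without control 1 and DKO 2 the log2 fold change of Plin1 was 1.44 (edgeR adjusted p = 0.0385), and that of Lipg was 1.27 (adjusted p = 0.0349).

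**Figure D3:**
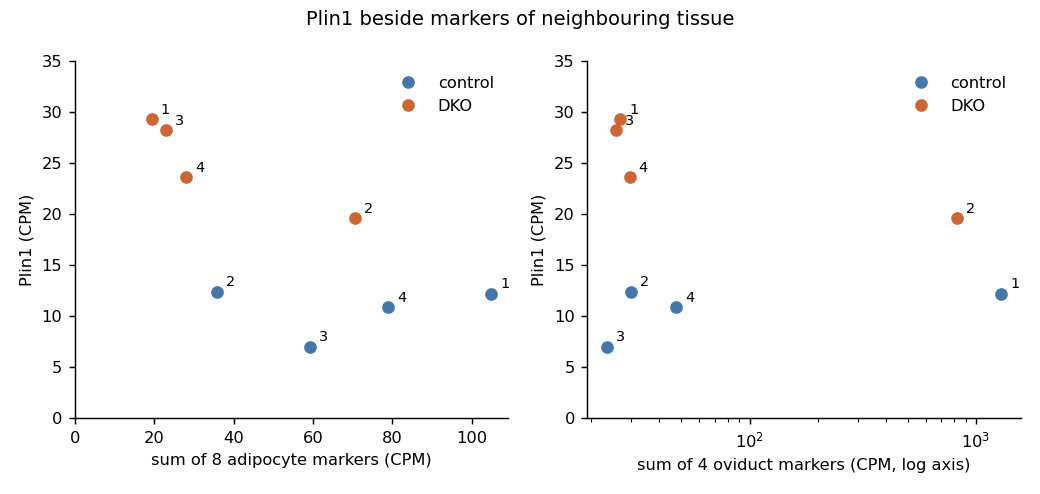
Plin1 in CPM (vertical axes) against the sum of 8 adipocyte markers (left, CPM) and of 4 oviduct markers (right, CPM, log axis), 1 point per library with its replicate number, controls in blue and DKO in orange. Plin1 is higher in all DKO points, which hold 19.3 to 70.5 CPM of adipocyte markers against 35.8 to 105 CPM in controls.

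Of the enzymes inside the cell, none passed the test. Pnpla2 (gene ID 66853, chromosome 7, 141455188 to 141460743), which encodes the lipase of the first step, was at 63.4, 76.1, 99 and 88.4 CPM in controls and 75.5, 79.7, 67 and 69 CPM in DKO. The control ovaries spread around the narrower DKO range, and the log2 fold change was -0.17 ± 0.14 (edgeR adjusted p = 0.628). Its activator gene Abhd5 (gene ID 67469, chromosome 9, 122351539 to 122381524) was at 35.5, 39.9, 45.1 and 44.9 CPM in controls and 34.4, 33.8, 47.3 and 48.6 CPM in DKO. The mice of the lower run of title numbers (control 1, DKO 1 and DKO 2) held the lowest Abhd5 values, 33.8 to 35.5 CPM. The log2 fold change between genotypes was -0.012 ± 0.15 (edgeR adjusted p = 0.98) and had either sign over the alternatives.

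Lipe (gene ID 16890, chromosome 7, 25379527 to 25398486) encodes hormone-sensitive lipase, which protein kinase A switches on and which also frees cholesterol from its esters. It was at 42.0, 40.7, 53.5 and 36.1 CPM in controls and 56.7, 62.9, 67.7 and 60.8 CPM in DKO. The groups did not overlap, with DKO 1 just above control 3. Means were 43.1 ± 7.39 and 62.0 ± 4.58 CPM and the log2 fold change 0.53 ± 0.13 (edgeR adjusted p = 0.0839). The adjusted p was 0.0164 without control 3 and 0.00661 by DESeq2. Per kb of exon, the ratio of Lipe to Pnpla2 was 0.245 to 0.398 in controls and 0.451 to 0.607 in DKO.

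Mgll (gene ID 23945, chromosome 6, 88724412 to 88828360), which encodes the monoglyceride lipase that also breaks down the endocannabinoid 2-AG, was at 30.1, 29.2, 43.2 and 40.3 CPM in controls and 27.8, 42.5, 52.0 and 50.5 CPM in DKO. DKO 1 was the lowest of all 8 ovaries, and the groups overlapped (0.28 ± 0.21, edgeR adjusted p = 0.589).

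The small inhibitors of PNPLA2 were also read. G0s2 was at 7.79, 4.95, 2.12 and 5.49 CPM in controls and 12.3, 10.9, 9.23 and 8.75 CPM in DKO, higher in every DKO ovary (1.01 ± 0.33, edgeR adjusted p = 0.173). Hilpda, the hypoxia-linked inhibitor, was at 13.3, 15.7, 22.1 and 13.9 CPM in controls and 11.9, 12.9, 9.49 and 11.4 CPM in DKO, lower in every DKO ovary (-0.51 ± 0.18, edgeR adjusted p = 0.212). Neither passed by edgeR, while DESeq2 called G0s2 (adjusted p = 0.045).

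At the cell surface, Lipg showed the largest difference of the 9 genes. Endothelial lipase prefers the phospholipids of high-density lipoprotein, and Lipg has gene ID 16891 and stands on chromosome 18 (74939322 to 74961263). It was at 107, 121, 133 and 172 CPM in controls and 392, 521, 276 and 351 CPM in DKO. The lowest DKO ovary, DKO 3, was well above the highest control, control 4. Lipg rose from 133 ± 28.0 to 385 ± 103 CPM (SD, n = 4 each), a log2 fold change of 1.53 ± 0.21 (SE, edgeR adjusted p = 0.0162), and ranked 26 by p among 16870 genes. The call held in 21 of 22 alternative analyses and ended without control 2 (1.49, adjusted p = 0.0815). Without DKO 1 and DKO 2 it was 1.25 (0.0472). Within the higher run of title numbers the log2 fold change was 1.16 (adjusted p = 0.039).

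Lpl (gene ID 16956, chromosome 8, 68880555 to 68906932) encodes the lipase that frees fatty acids from triglyceride-rich lipoproteins. It was at 136, 144, 101 and 124 CPM in controls and 138, 108, 83.1 and 99.6 CPM in DKO. The groups overlapped (-0.23 ± 0.16, edgeR adjusted p = 0.555), unlike those of Lipg. Per kb of exon the ratio of Lipg to Lpl was 0.773, 0.830, 1.30 and 1.37 in controls and 2.80, 4.73, 3.27 and 3.47 in DKO, so Lipg was near Lpl in controls and above it in every DKO ovary. Gpihbp1, whose protein anchors lipoprotein lipase to capillaries, ranged from 1.5 to 4.78 CPM over controls and from 2.44 to 5.09 over DKO (0.35 ± 0.37, edgeR adjusted p = 0.713).

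Endothelial markers (Pecam1, Cdh5, Kdr, Tie1, Tek and Emcn) summed to 425, 427, 460 and 532 CPM in controls and 422, 501, 604 and 650 CPM in DKO. All 6 had a log2 fold change above 0, and edgeR and DESeq2 called 0 of them. At an unadjusted p under 0.05, 3 were higher, beside 8.43% of all genes tested. Kdr, Tek and Tie1 were called higher by limma-voom with quality weights, which called 9.79% of genes in either direction. Of 6 markers of luteinizing and steroid-producing cells, edgeR called Hsd3b1, Oxtr and Ptgfr higher, and DESeq2 called these with Lhcgr and Cyp11a1. Star was at 1016, 2395, 2521 and 2497 CPM in controls and 821, 907, 3267 and 3396 CPM in DKO (-0.0068 ± 0.52, edgeR adjusted p = 0.997). Its lowest values were those of the lower run of title numbers (control 1, DKO 1 and DKO 2). The 6 summed to 7161 to 13170 CPM in controls and 13855 to 18343 CPM in DKO. The part of either cell type in the values of Lipg and Plin1 was not tested.

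Macrophage markers summed to 206 to 305 CPM in controls and 203 to 255 CPM in DKO, with 0 called by edgeR and 1, Cd14, called lower by DESeq2 (the same 1 at an unadjusted p under 0.05). Markers of granulosa, theca, smooth muscle, oocyte, oviduct, neutrophil and red blood cells had 0 called by edgeR. At an unadjusted p under 0.05 these held 1 granulosa and 2 red blood cell genes higher, beside 8.43% of all genes tested. They held 3 smooth muscle and 4 neutrophil genes lower, beside 6.98%. In the same order DESeq2 called 1, 1, 0 and 2.

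**Figure D4:**
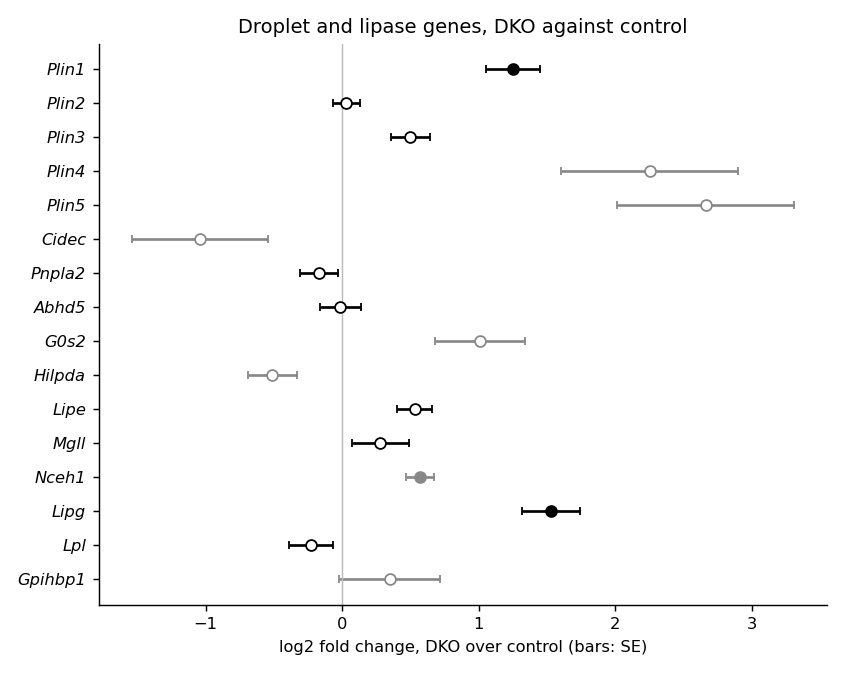
Log2 fold change of DKO over control (horizontal axis) with its SE for the 9 genes (black) and 7 of their partners (grey); filled points passed an adjusted p of 0.05. Lipg, Plin1 and Nceh1 are filled, and Plin4 and Plin5 have the largest values with the widest errors.

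By length-adjusted level the 9 genes formed a high and a low set in control ovaries, with Plin1 apart at the bottom of the low set. Lipg (32.4 CPM per kb), Lpl (31.2), Pnpla2 (30.1), Plin2 (29.6) and Plin3 (28.3) had overlapping control ranges and stood at the 84.2 to 86.5 percentile of genes tested. Abhd5 (12.8), Lipe (9.52), Mgll (7.63) and Plin1 (5.13) followed, at the 48.8 to 68.1 percentile. Neighbours in this order overlapped in range, except Plin3 (25.9 to 32.1) and Abhd5 (11 to 14), and Mgll (6.24 to 9.23) and Plin1 (3.38 to 6.00). In DKO ovaries Lipg led alone at 93.6 CPM per kb (67 to 127), and Plin3 at 40.1 was next.

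The genes with the pattern most like that of Lipg over the 8 libraries were Gm2a, Epha3 and Myo7a, with a root mean square difference in centred log2 CPM of 0.273, 0.283 and 0.301. For Plin1 they were Fads2 (0.219), Nckap5 (0.223) and Klhdc8a (0.244). The median over the 11564 genes compared was 0.831 for Lipg and 0.698 for Plin1. Gm2a, which encodes the ganglioside activator protein of lysosomes, averaged 292 ± 92.5 CPM over controls and 857 ± 170 over DKO. This likeness includes the difference between genotypes, and no test was made of it.

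In the wider field of 107 droplet and lipase genes, 93 were tested and edgeR called 1 of them, Nceh1, higher and 0 lower, near the 1.26% of all genes called. Nceh1 encodes a hydrolase of neutral cholesterol ester and was at 57.1, 56.1, 46.7 and 57.7 CPM in controls and 88.2, 81.1, 77.9 and 76.3 CPM in DKO. Every DKO value was above every control value (0.57 ± 0.10, edgeR adjusted p = 0.0341). The call ended without control 2, control 4, DKO 1, DKO 2, DKO 3 or DKO 4 (0.53 to 0.60, adjusted p = 0.0515 to 0.133). It also ended without control 1 and DKO 2 together (0.61, 0.0802), without DKO 1 and DKO 2 together (0.52, 0.163) and in the higher run of title numbers (0.55, 0.147). The 93 genes had a median log2 fold change of 0.032, with 51 above 0 and 42 below. Of them 16 were higher and 7 lower without overlap, beside 5.69% and 3.54% of all genes tested. At an unadjusted p under 0.05 there were 20 higher and 10 lower, beside 8.43% and 6.98% of all genes tested. DESeq2 called 14 higher and 7 lower, beside its 4.13% and 3.06%.

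Among 14 tested genes of droplet coat and assembly edgeR called 0 (2 higher and 2 lower at an unadjusted p under 0.05, and the same numbers by DESeq2). Hsd17b11, whose protein sits on droplets, had the smallest adjusted p there and was at 166, 304, 318 and 346 CPM in controls and 76.0, 75.8, 141 and 161 CPM in DKO (-1.32 ± 0.31, edgeR adjusted p = 0.0846). All DKO values were below the lowest control. Of 12 other hydrolases edgeR called Nceh1, and DESeq2 called Nceh1 and Abhd6 (4 higher at an unadjusted p under 0.05).

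Among 13 lipolysis regulators edgeR called 0 (3 higher and 1 lower at an unadjusted p under 0.05; 3 higher and 0 lower by DESeq2). Prkaca, the catalytic subunit of protein kinase A, averaged 118 ± 10.7 CPM over controls and 157 ± 4.00 over DKO (0.41 ± 0.093, edgeR adjusted p = 0.0673). Of 16 genes that mature, anchor or inhibit lipoprotein lipase, 0 were called (2 higher and 4 lower unadjusted, and the same numbers by DESeq2). Pcsk5, a protease known to cleave both endothelial lipase and lipoprotein lipase, was at 622 ± 17.3 and 441 ± 66.4 CPM (-0.50 ± 0.12, edgeR adjusted p = 0.0844).

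Synthesis of triglyceride and sterol ester had 11 of 14 tested genes above 0 and 0 called (4 higher and 1 lower unadjusted, 2 higher by DESeq2). Agpat2, an acyltransferase of that route, was at 32.7 ± 7.03 and 50.8 ± 2.73 CPM (0.64 ± 0.14, edgeR adjusted p = 0.0674). Uptake of fatty acids and lipoproteins had 7 of 13 above 0 and 0 called (4 higher and 2 lower unadjusted; 3 higher and 1 lower by DESeq2). Scarb1, the receptor that takes cholesterol ester from high-density lipoprotein, was at 1298 ± 358 and 2606 ± 635 CPM (1.01 ± 0.23, edgeR adjusted p = 0.0686). Among 11 transcription factors that respond to lipid 0 were called by edgeR or DESeq2 (1 higher unadjusted), and Ppara had the smallest adjusted p (0.43 ± 0.18, 0.296).

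**Figure D5:**
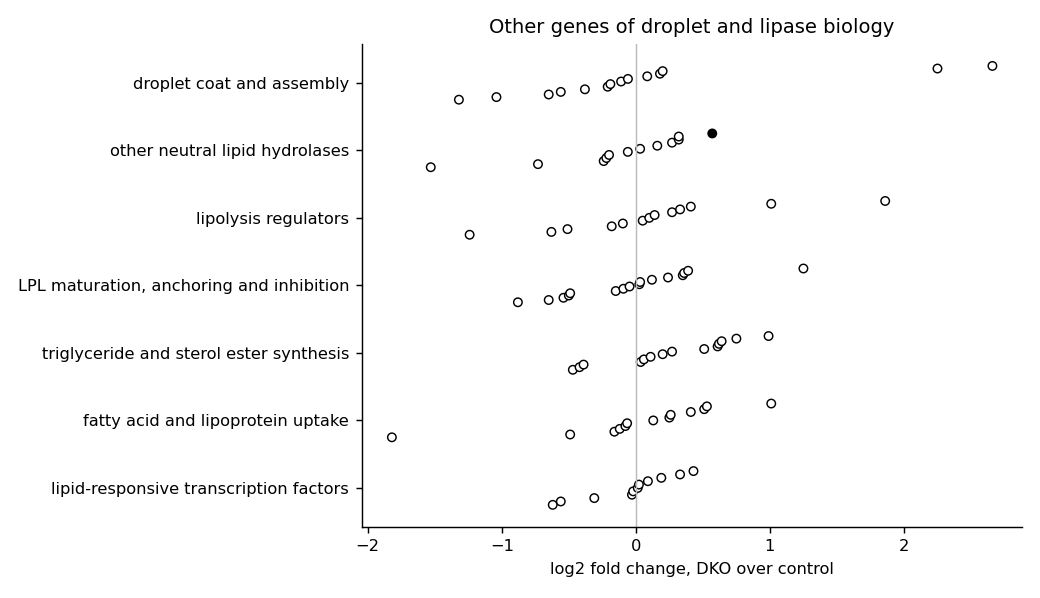
Log2 fold change of DKO over control (horizontal axis) for the 93 tested genes of 7 lists, 1 point per gene and 1 line per list; the filled point passed an adjusted p of 0.05. Nceh1 is the filled point, and the far right points of the top line are Plin4 and Plin5.

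Some genes of the field could not be read from these tables. Angptl4, Fabp3 and Ppard had 0 counts in all 8 libraries and Agpat1 at most 2. Their exons are listed on more than 1 contig, as are those of 1646 genes, of which 1091 had under 10 counts in all. Their counts were therefore not taken as levels. None of the 9 genes is listed in this way.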

How the data were processed

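For each library the authors deposited unnormalized counts, which came from featureCounts 1.5.2 on exons summed by gene ID, with the reverse-stranded setting and the RefSeq annotation of GRCm38.p5, per the file headers. The submitters' processing notes also list Trimmomatic 0.36 and 0.33, STAR 2.4.2a, bcl2fastq 2.17.1.14 and edgeR 3.12.0, with no role. Groups and replicate numbers came from the sample descriptions, and all 8 libraries were used. Nothing in the labels says more of how the replicates were taken, so p-values measure the spread between these samples. Within a group no pair of libraries agreed within sampling noise (reduced chi-square 22.9 to 129).

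Symbols came from RefSeq GRCm38.p6 (96.9% of IDs) and promoter windows from the same release. Gene coordinates are those of the count tables. Genes were kept by filterByExpr, library sizes were scaled by TMM, and DKO was compared with control by edgeR 4.0.16's quasi-likelihood F-test with robust dispersions without covariates; p-values are two-sided and adjusted after Benjamini-Hochberg over 16870 genes (R 4.3.3). The SE is the log2 fold change divided by the square root of F. The script was tested on simulated data. CPM per kb divides CPM by the exon length in the tables. Likeness used log2 of CPM plus 0.5 for genes whose mean reached 5 CPM.

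The 9 genes, the 7 lists of 107 related genes (Ldaf1 had no match) and the 11 marker lists were chosen with earlier results of these data known. Named were the 9 genes, Insr, Igf1r and Pgr, 7 fixed partners (Plin4, Plin5, Cidec, G0s2, Hilpda, Gpihbp1 and Angptl4), and in each list the called genes or, with none called, the gene with the smallest adjusted p, plus the 3 genes most like each of the 2 members with the smallest adjusted p. Alternatives were 3 scalings, 2 filters, DESeq2 1.42.0, limma 3.58.1 voom with and without quality weights, non-robust dispersions, a block for the replicate number or for the run of title numbers, the higher run alone, and leaving out each library. Leaving out control 1 and DKO 2 together, and DKO 1 and DKO 2 together, was added after seeing the data.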

Additional observations from a re-analysis of the deposited data

Results flagged for a closer look

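In 44 groups of 4 libraries, from part of the named genes in controls and in DKO, the highest or lowest library was set against the others. Its gap was taken as a share of the range, and 3 groups passed Dixon's 95% critical value for 4 samples. By chance about 1 in 20 groups is flagged. Plin2 was at 78.7 CPM in DKO 4, with the other 3 DKO ovaries between 69.8 and 70.7. Nceh1 was at 46.7 CPM in control 3, with the other controls between 56.1 and 57.7. Ppara was at 7.53 CPM in control 3, with the other controls between 12.4 and 12.9. Control 3 was thus the low library for both Nceh1 and Ppara. Igf1r, which was not among the genes examined in this way, was at 247 CPM in DKO 4, with the other 3 DKO ovaries between 200 and 205.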

How the results depend on the processing

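The count of called genes among the 9 was 2 with all libraries. It was 4 by DESeq2, by limma-voom with quality weights and with the replicate block, 1 with the higher run of title numbers alone or without DKO 1 and DKO 2, 3 with a block for that run, and 0 to 3 when single libraries were left out, 0 without control 2. The 4 were Lipg, Plin1, Plin3 and Lipe. Among the related genes the count was 1. It was 2 with library size only, upper quartile factors, the stricter filter or limma-voom, 3 with no filter or the higher run of title numbers alone, 7 with a block for the run of title numbers, 14 with the replicate block, 21 by DESeq2 and 25 with quality weights. It was 0 without control 1 and DKO 2 and without DKO 1 and DKO 2, and 0 to 8 with single libraries left out (8 without control 3). Over all genes it was 212, 1107 by DESeq2, 1651 with quality weights, 743 with the replicate block, 526 with the block for the run, 97 without control 1 and DKO 2, 64 without DKO 1 and DKO 2, and 2 to 506 with single libraries left out, 2 without control 2 and 506 without control 3. Each fit without a library has fewer samples, and the count over all genes was 258 without control 1 and 506 without control 3. The cause of these moves was not tested.

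The labels do not say whether the replicate numbers pair the samples. Same-numbered deviations from the group means correlated at 0.156, -0.359, 0.312 and 0.468, and 2 of the 4 numbers matched best with themselves. So few correlations cannot decide whether the samples are paired. The counts of 4, 14 and 743 under the replicate block are therefore not read as a paired result. Plin2 turned negative without control 1 (-0.0099) and without DKO 4 (-0.01), in a range up to 0.078 with single libraries left out. Abhd5 turned positive with library size only (0.0023), no filter (0.0066), quality weights (0.037), the block for the run (0.074), the higher run of title numbers alone (0.16), control 1 and DKO 2 left out (0.02), DKO 1 and DKO 2 left out (0.23), and in 4 fits without 1 library (0.03 to 0.08; the range over such fits was -0.10 to 0.08). Igf1r was 0.014 with the higher run of title numbers alone. Of the 25 genes fitted under the alternatives, those other than Plin2, Abhd5 and Igf1r kept their direction in each alternative that could be fitted. The genes most like Lipg and Plin1 were not fitted under the alternatives.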
